A study of Medicago truncatula with 16 samples.

Results

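Transcript levels of 4 genes were followed through germinating seeds of *Medicago truncatula*, a model legume: the alcohol dehydrogenase genes MtrunA17_Chr3g0125911 and MtrunA17_Chr3g0125961, and the peroxidase genes MtrunA17_Chr5g0404721 and MtrunA17_Chr2g0292111. They are 4 of the 44473 genes in the count table, and the enzyme names come from the annotation that accompanies the study, where each is marked as putative. The study selected these genes on their radicle levels, as members of a group of 103 genes with lower values in PEG-treated 1 mm radicles than in the other radicle samples (its cluster 5). Radicle values are therefore given below as a description with no test, and so are comparisons of cotyledons with radicles. The cotyledon libraries were not used in that selection, and differences among them were tested. In cotyledons both alcohol dehydrogenase genes and MtrunA17_Chr2g0292111 fell after PEG at both stages, whereas MtrunA17_Chr5g0404721 was close to its detection limit in every cotyledon library. The 5 mm call of MtrunA17_Chr2g0292111 depended on single libraries.

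All seeds were of the A17 line. Seeds with an emerged radicle of 1 mm or 5 mm were taken either untreated or after a mild osmotic treatment in polyethylene glycol (PEG8000) at -1.7 MPa, which lasted 3 days at 10 °C in the dark. Radicles (R) and cotyledons (C) were extracted separately, which gave 8 groups of 2 libraries each: R1, R1P, R5, R5P, C1, C1P, C5 and C5P, where the digit is the radicle length in mm and P marks PEG. A cold and dark control in water for the same time was not among the groups. PEG, temperature, darkness and the 3 added days therefore cannot be told apart. The labels call the replicates biological and each library is a pool of many seeds. The labels describe the radicles as desiccated in one place and the seeds as freshly harvested in another, and which state the RNA came from is not settled by the sources used here. The question behind the study is which genes accompany the return of desiccation tolerance in 1 mm radicles after PEG.

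Alcohol dehydrogenase converts acetaldehyde to ethanol with NADH, the last step of ethanol fermentation, and regenerates the NAD+ that glycolysis needs when oxygen is short. It is a classical enzyme of germinating seeds, in which tissues respire fast behind a seed coat. Class III plant peroxidases are secreted haem enzymes that use hydrogen peroxide to oxidise phenolic substrates, stiffening cell walls or, in another reaction cycle, producing radicals that loosen them, and they form a large gene family in plants. Whether MtrunA17_Chr5g0404721 and MtrunA17_Chr2g0292111 belong to this class was not checked from sequence.

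The libraries held 22012976 to 23257652 estimated counts. Levels are CPM, the counts of a gene relative to the library's total, scaled with TMM, the edgeR method that corrects for differences in RNA composition. These factors ran from 0.718 to 1.22, lowest in the C1P replicate 2 library, and the scaling mattered. With library totals alone, the median log2 difference of all genes shifted by -0.57 for C1P against C1, by 0.42 for C5P against C1P, by -0.37 for R1P against R1, by -0.35 for R5P against R5 and by -0.11 for R1P against R5P. The percentage of calls that were higher then went from 48 to 19.9% in C1P against C1, from 64.5 to 90.2% in C5P against C1P, from 42.5 to 25.3% in R1P against R1 and from 48 to 31.6% in R5P against R5. Replicates were least alike in C1P, with a correlation of log2 CPM of 0.953 across genes, against 0.991 in R5. Of 4 tissue markers taken from the annotation, none was at 0 in any library, and they did not separate the tissues. The 3 cotyledon markers, a legumin and a pair of chlorophyll a-b binding proteins, summed to 12.4 CPM in both C1 libraries and to 4.69 and 7.34 CPM in R1, but to 367 and 456 CPM in C1P and to 1840 and 1850 CPM in R1P. The casparian strip marker of roots had 9.52 and 10.4 CPM in C1 and 7.22 and 9.87 CPM in R1, against 1.4 and 3.16 CPM in C1P and 0.415 and 1 CPM in R1P. At 5 mm it had 31 and 66.6 CPM in C5, its highest group, against 3.88 and 5.7 CPM in C5P, and 11.4 and 15.4 CPM in R5 against 8.82 and 8.99 CPM in R5P. The cotyledon marker sum was also higher after PEG at 5 mm, at 501 CPM or above in each C5P and R5P library against at most 17 CPM in C5 and R5. These marker differences accompanied PEG as the results below did, and their part in them was not tested. In these pools, fewer cells of a type and less RNA per cell cannot be told apart.

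**Figure D1:**
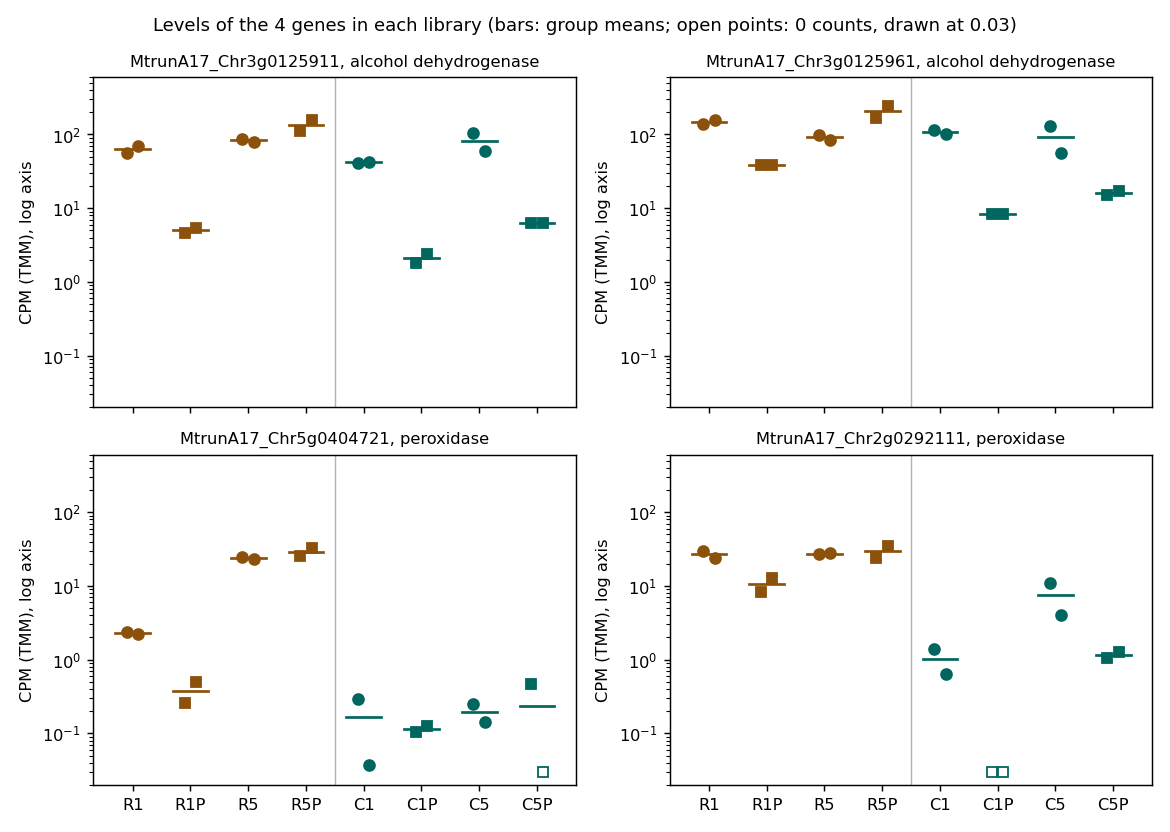
Level of each gene in each of the 16 libraries (TMM-scaled CPM, log axis), with radicles on the left and cotyledons on the right of each panel, circles for untreated and squares for PEG-treated libraries, horizontal bars for the means of 2 libraries and open symbols for libraries with 0 counts. Both alcohol dehydrogenase genes sit low in R1P, C1P and C5P, MtrunA17_Chr5g0404721 stays under 0.5 CPM in cotyledons, and MtrunA17_Chr2g0292111 has 0 counts in both C1P libraries.

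The alcohol dehydrogenase gene MtrunA17_Chr3g0125911 was low in 3 of the 4 PEG-treated groups and highest in the remaining one, R5P. Its untreated 1 mm radicle libraries had 55.95 and 69.3 CPM, against 4.66 and 5.36 CPM in R1P. The 5 mm radicles had 86.8 and 80.0 CPM untreated and 110.6 and 156.3 CPM after PEG. Thus R1P lay below every other radicle library, as the selection required, and R5P lay above R5 without overlap. In cotyledons the values were 41.2 and 42.4 CPM in C1, 1.82 and 2.40 CPM in C1P, 103.2 and 60.4 CPM in C5, and 6.33 and 6.29 CPM in C5P. Neither PEG-treated cotyledon group overlapped its untreated counterpart. In the order of group means, R5P with 133.4 ± 32.3 CPM (SD, n = 2) was followed by R5, C5 and R1, whose libraries overlapped from one group to the next, then by C1, C5P, R1P and, lowest, C1P with 2.11 ± 0.41 CPM (SD, n = 2).

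The fall of MtrunA17_Chr3g0125911 in cotyledons passed the test at both stages. C1P was lower than C1 by a log2 fold change of -4.33 (SE 0.31, edgeR adjusted p = 7.29e-05), a 20.1-fold difference, and C5P was lower than C5 by -3.75 (SE 0.29, edgeR adjusted p = 0.000109), a 13.5-fold difference. Among the 23060 genes tested in cotyledons it ranked 625 from the lowest fold change in the former and 570 in the latter. Between the untreated stages it did not pass, with a log2 fold change of 0.95 for C5 against C1 (SE 0.26, edgeR adjusted p = 0.0578). Without the C5 replicate 2 library that difference was 1.31 and passed (edgeR adjusted p = 0.0276). Between the PEG-treated stages it was higher in C5P than in C1P by 1.53 (SE 0.29, edgeR adjusted p = 0.0285), a call that was lost without any one of the 4 libraries compared, at 1.32 and 1.76 without C1P replicates 1 and 2 and at 1.57 and 1.53 without C5P replicates 1 and 2 (edgeR adjusted p from 0.0543 to 0.163). In radicles, as a description, the log2 fold changes were -3.62 (SE 0.21) for R1P against R1, 0.79 (SE 0.18) for R5P against R5, 0.35 (SE 0.18) for R5 against R1 and -4.76 (SE 0.22) for R1P against R5P.

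The alcohol dehydrogenase gene MtrunA17_Chr3g0125961 followed a similar course with smaller differences. In radicles it had 137.4 and 157.1 CPM in R1, 39.1 and 38.3 CPM in R1P, 99.8 and 84.3 CPM in R5, and 168.7 and 243.4 CPM in R5P. R1P was again below all other radicle libraries and R5P above them. In cotyledons it had 114.9 and 102.1 CPM in C1, 8.37 and 8.48 CPM in C1P, 130.9 and 56.8 CPM in C5, and 14.9 and 17.04 CPM in C5P. All PEG-treated cotyledon libraries were below all untreated ones. The 2 C5 libraries stood far apart and spanned both C1 values and both R5 values. R5P held the highest group mean, 206 ± 52.8 CPM (SD, n = 2), followed by R1, and then by C1, C5 and R5, which overlapped as neighbours in that order. R1P, C5P and C1P followed without overlap, and C1P had 8.42 ± 0.072 CPM (SD, n = 2).

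Both PEG comparisons in cotyledons passed for MtrunA17_Chr3g0125961. Its log2 fold change was -3.71 for C1P against C1 (SE 0.37, edgeR adjusted p = 0.000314), 13.1-fold, and -2.60 for C5P against C5 (SE 0.35, edgeR adjusted p = 0.00144), 6.06-fold. The stage comparisons did not pass, with -0.23 for C5 against C1 (SE 0.33, edgeR adjusted p = 0.717) and 0.87 for C5P against C1P (SE 0.34, edgeR adjusted p = 0.136). The former ran from -0.92 to 0.28 as single libraries were left out. With library totals the latter was 1.29 and passed (edgeR adjusted p = 0.0457), in a comparison whose median over all genes that scaling shifted by 0.42. The radicle values, again as a description, were -1.91 (SE 0.19) for R1P against R1, 1.28 (SE 0.18) for R5P against R5, -0.74 (SE 0.18) for R5 against R1 and -2.45 (SE 0.19) for R1P against R5P.

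The counts of the alcohol dehydrogenase genes were not whole numbers, to within 0.0005 of a count, in any of the 16 libraries, as happens when the authors' software divides reads among similar transcripts. For this reason the summed counts were examined as well. The sums were not whole either, with 4207.479 counts in C1 replicate 1. MtrunA17_Chr3g0125941, whose identifier lies between those of the pair, had 875.521 counts there, which completes the fraction. The sum of the pair therefore leaves out part of the shared reads. The pair summed to 156.1 and 144.5 CPM in C1, 10.2 and 10.9 CPM in C1P, 234.1 and 117.2 CPM in C5, and 21.3 and 23.3 CPM in C5P. Fitted as 1 gene, the sum fell after PEG by -3.85 (SE 0.33, edgeR adjusted p = 0.000148) at 1 mm and by -3.03 (SE 0.31, edgeR adjusted p = 0.000402) at 5 mm on the log2 scale. The sum in radicles was 193.3 and 226.4 CPM in R1, 43.7 and 43.6 CPM in R1P, 186.5 and 164.3 CPM in R5, and 279.3 and 399.6 CPM in R5P. The balance within the pair differed between groups, which a sum does not show. MtrunA17_Chr3g0125911 took 28.9 and 30.6% of the pair's counts in R1 but 10.7 and 12.3% in R1P, and 46.5 and 48.7% in R5. In cotyledons its share was 26.4 and 29.4% in C1, 18 and 22.1% in C1P, 44.1 and 51.5% in C5, and 29.8 and 27% in C5P. The share was thus lower after PEG in each tissue and stage, without overlap, and higher in the untreated 5 mm than in the untreated 1 mm stage in both tissues. These are shares of counts and not of transcripts, since transcript lengths were not used here. They depend on how reads were divided between the genes, MtrunA17_Chr3g0125941 and MtrunA17_Chr3g0125951. The last of these had 4.905 counts in R1 replicate 1, where the fractions complete each other only with this gene included.

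The peroxidase gene MtrunA17_Chr5g0404721 was highest in 5 mm radicles. R1 had 2.35 and 2.21 CPM, R1P 0.259 and 0.501 CPM, R5 24.6 and 23.4 CPM, and R5P 25.2 and 32.3 CPM. The 5 mm libraries, treated or not, were all above the 1 mm libraries, and R1P was the lowest of the radicle groups. As a description, its log2 fold changes were 3.33 (SE 0.22) for R5 against R1, which is 10.1-fold, -2.54 (SE 0.33) for R1P against R1, 0.37 (SE 0.19) for R5P against R5 and -6.25 (SE 0.29) for R1P against R5P. R1P rested on 5 and 10 counts, so that sums of 15 counts in R1P and 114 in R1 gave a ratio of 5.96 with a 95% exact interval of 3.46 to 11 for counting error only.

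In cotyledons MtrunA17_Chr5g0404721 had 0 to 11 counts per library, and it did not reach the level needed to enter the cotyledon fit. The libraries had 0.297 and 0.0372 CPM in C1, 0.104 and 0.127 CPM in C1P, 0.253 and 0.143 CPM in C5, and 0.464 and 0 CPM in C5P. The 4 cotyledon groups overlapped one another in the order of means, and R1P overlapped C5P. A PEG difference in cotyledons was not detectable at this depth: C1P had 4 counts in all and C1 had 9, which is 1.46-fold lower in C1P with a counting interval of 0.409 to 6.51, and C5P had 11 counts and C5 had 10. The C5P replicate 2 library had 0 counts, where 3 counts would be 0.137 CPM. Its counts were whole, to within 0.0005 of a count, in 11 of 16 libraries.

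The peroxidase gene MtrunA17_Chr2g0292111 was present in both tissues, with the smallest radicle difference of the 4 genes. Radicles had 29.4 and 24.3 CPM in R1, 8.19 and 12.98 CPM in R1P, 27.1 and 27.6 CPM in R5, and 24.2 and 35.4 CPM in R5P. Apart from R1P, the radicle groups overlapped one another. Cotyledons had 1.41 and 0.632 CPM in C1, 0 counts in both C1P libraries, 10.8 and 4.08 CPM in C5, and 1.05 and 1.28 CPM in C5P. C5 was the highest cotyledon group and came near R1P, whose range its higher library reached. C5P overlapped C1. The radicle log2 fold changes were -1.32 (SE 0.24) for R1P against R1, 0.24 (SE 0.23) for R5P against R5, -0.03 (SE 0.23) for R5 against R1 and -1.52 (SE 0.25) for R1P against R5P. With the fold change limit of 1 on the log2 scale it was the closest of the 4 genes to the limit in R1P against R1, and it was at -0.93 without the R1P replicate 1 library. The neighbouring peroxidase gene MtrunA17_Chr2g0292151, at -1.12 in the same comparison, was placed outside cluster 5.

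In cotyledons MtrunA17_Chr2g0292111 fell after PEG. The 0 counts in C1P against 56 in C1 put it at least 5.91-fold lower, with the floor set at 3 counts per library, and this difference passed the test (edgeR adjusted p = 0.00683). C5P was lower than C5 by a log2 fold change of -2.71 (SE 0.61, edgeR adjusted p = 0.0168), 6.56-fold. That call was lost without C5 replicate 1 (-1.81), C5P replicate 1 (-2.54) or C5P replicate 2 (-2.86). The gene rose between the untreated stages, by 2.83 for C5 against C1 (SE 0.61, edgeR adjusted p = 0.0302), or 7.13-fold, but not without C1 replicate 1 (3.56), C1 replicate 2 (2.40) or C5 replicate 1 (2.01). It was at least 6.74-fold higher in C5P than in C1P (edgeR adjusted p = 0.0293), a call lost without C1P replicate 2, C5P replicate 1 or C5P replicate 2, where edgeR adjusted p was 0.086, 0.113 and 0.0868. Counts were not whole, to within 0.0005 of a count, in 14 of the 16 libraries, and the other 2, both C1P, had 0 counts.

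**Figure D2:**
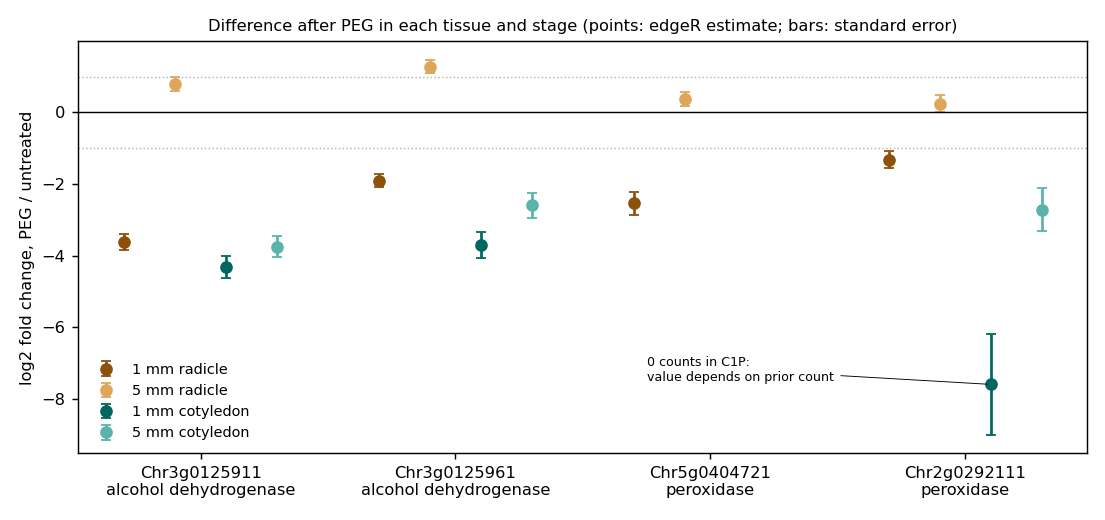
Log2 fold change after PEG (edgeR estimate, with a standard error derived from the test statistic) for each gene in 1 mm and 5 mm radicles and cotyledons, with dotted lines at the fold change limit of 1 on either side of 0. In cotyledons the 3 tested genes lie at -2.60 or lower at both stages, while in 5 mm radicles all 4 lie between 0.24 and 1.28. The value for MtrunA17_Chr2g0292111 in 1 mm cotyledons depends on the prior count because C1P had 0 counts.

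Set side by side, the 3 genes that could be tested in cotyledons were all called lower in C1P against C1, where 14.9% of all genes tested were called lower and 13.8% higher. All 3 were also lower in C5P against C5, where 12.1% of all genes were called lower and 9.02% higher. A gene was called at an edgeR adjusted p under 0.05 and a log2 fold change beyond 1. The median of the 3 was -4.33 at 1 mm and -2.71 at 5 mm, beside -0.08 and -0.05 over all genes. With MtrunA17_Chr2g0292111 at its bound of 5.91-fold, the 1 mm median was the value of MtrunA17_Chr3g0125961, -3.71. The 3 had to pass a filter on low counts through whichever group was high. In C5 against C1 only MtrunA17_Chr2g0292111 of the 3 was called higher, against 5.7% of all genes, and in C5P against C1P MtrunA17_Chr3g0125911 and MtrunA17_Chr2g0292111 were, against 4.01%. The radicle calls belong to the selection and support nothing: all 4 genes were lower in R1P against R1, where 20.5% of all genes were, and in R1P against R5P, where 15.3% were. MtrunA17_Chr3g0125961 alone was called higher in R5P against R5 (18.9% of all genes), and not without R5P replicate 2 (0.96) or with library totals (0.93). MtrunA17_Chr5g0404721 alone was called higher in R5 against R1 (13.8%).

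The cotyledon response to PEG at 5 mm was compared with that at 1 mm through the interaction of stage and treatment. The difference, 5 mm minus 1 mm, was 0.58 (SE 0.39, edgeR adjusted p = 0.414) for MtrunA17_Chr3g0125911, 1.11 (SE 0.48, edgeR adjusted p = 0.235) for MtrunA17_Chr3g0125961 and 4.89 (SE 1.86, edgeR adjusted p = 0.203) for MtrunA17_Chr2g0292111, the last set by the prior count because C1P had 0 counts. For the last gene the direction is not set by the counts, since the fall was at least 5.91-fold at 1 mm and 6.56-fold at 5 mm. Of the 3 genes, 0 passed with edgeR or with DESeq2, although 2 had an unadjusted p under 0.05 in edgeR. Over all genes 0.663% were called lower and 0.559% higher. With library totals the higher share of calls went from 45.7 to 76.3%, and the median of all genes shifted by 0.48.

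Cotyledons and radicles were compared within each stage and treatment, as a description. Without PEG the alcohol dehydrogenase genes were at similar levels in the tissues. For MtrunA17_Chr3g0125911 and MtrunA17_Chr3g0125961 the log2 fold changes were -0.57 (SE 0.24) and -0.43 (SE 0.30) for C1 against R1, and -0.02 (SE 0.24) and 0.04 (SE 0.30) for C5 against R5. Their C5 libraries overlapped the R5 libraries, while C1 lay below R1. After PEG both were lower in cotyledons, at -1.24 (SE 0.29) and -2.19 (SE 0.32) for C1P against R1P and at -4.40 (SE 0.28) and -3.69 (SE 0.33) for C5P against R5P. The 5 mm difference accompanied values that were low in C5P and high in R5P.

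Both peroxidase genes were lower in cotyledons whether treated or not. For MtrunA17_Chr5g0404721, ratios of summed counts put cotyledons 13.6-fold below radicles in C1 against R1 (counting interval 6.93 to 30.6), 3.35-fold in C1P against R1P (1.07 to 13.9), 126-fold in C5 against R5 (67.2 to 259) and 120-fold in C5P against R5P (66.7 to 240). The interval of C1P against R1P nearly reached 1, and its 2 pairs of libraries rested on 4 and 15 counts. For MtrunA17_Chr2g0292111 the log2 fold changes were -4.70 (SE 0.50) in C1 against R1, -1.87 (SE 0.42) in C5 against R5 and -4.67 (SE 0.50) in C5P against R5P. With 0 counts in C1P, it was at least 61.2-fold lower there than in R1P. By the same limits on adjusted p and fold change, here a description that supports nothing because the radicle libraries chose the genes, 2 of the 4 genes were lower in C1 against R1 (22.4% of all genes), 3 in C1P against R1P (17.8%), 2 in C5 against R5 (23.7%) and all 4 in C5P against R5P (20.2%). The casparian strip marker was higher in C5 (31 and 66.6 CPM) than in R5 (11.4 and 15.4 CPM), so it gives no measure of radicle RNA in the cotyledon samples, and the part of such RNA in the cotyledon levels was not tested.

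**Figure D3:**
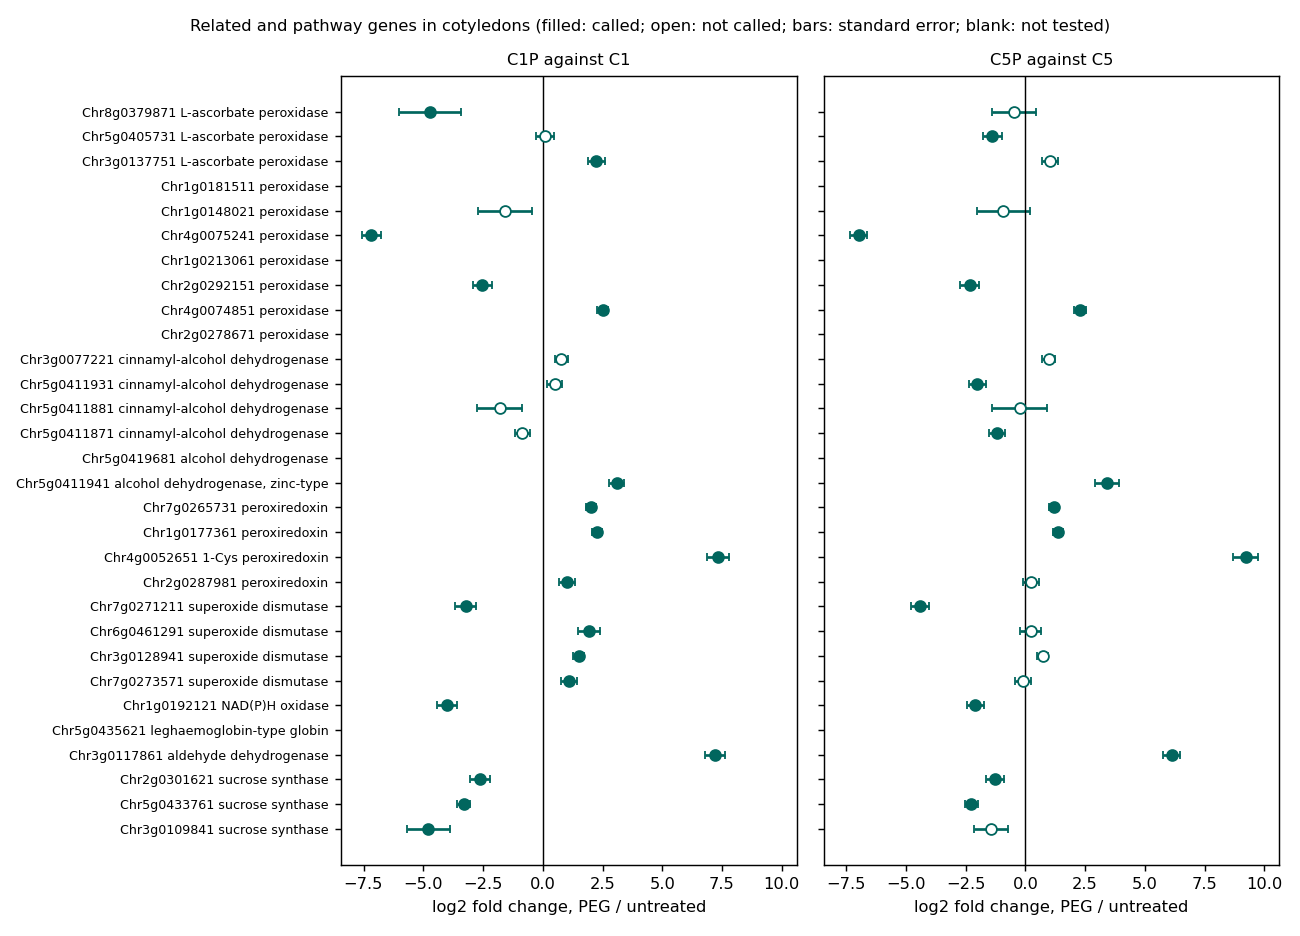
Log2 fold change after PEG (points, with standard errors) of related and pathway genes in 1 mm cotyledons (left) and 5 mm cotyledons (right), on the same horizontal scale. Filled points passed the test and open points did not, and genes with too few counts have no point. Among the alcohol dehydrogenase relatives, among the peroxidases and within the pathway list as a whole, some genes lie left and others right of 0.

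Other genes annotated as alcohol dehydrogenases differed from MtrunA17_Chr3g0125911 and MtrunA17_Chr3g0125961, and none was called lower at 1 mm. Annotations at hand cover the genes in the study's own tables, so the families listed here are not whole. Those tables hold genes that differed in R1P in transcript level or chromatin accessibility, so all lists here were in effect chosen on radicles. In R1P against R1 6 of 10 listed peroxidases were called lower and 3 higher, beside 20.5% and 15.2% of all genes. Of the 14 pathway genes 5 were lower and 9 higher. Directions within a list therefore do not describe the whole family. The list held 6 genes, among them 4 cinnamyl-alcohol dehydrogenases, enzymes of the monolignol pathway, and 5 had enough counts in cotyledons. At 1 mm 1 of 5 was called, and it was higher, where 14.9% of all genes were called lower and 13.8% higher. The zinc-type alcohol dehydrogenase MtrunA17_Chr5g0411941 rose from 1.36 to 11.7 CPM (log2 fold change 3.09, SE 0.33, edgeR adjusted p = 0.000404). Its 5 mm difference was 3.41 (SE 0.49, edgeR adjusted p = 0.00184), from 0.0569 to 0.70 CPM. The C5 libraries held 1 and 2 counts of this gene, under the floor of 3 counts, so the size of that difference is not well set by the counts. At 5 mm, where 12.1% of all genes were called lower, the cinnamyl-alcohol dehydrogenases MtrunA17_Chr5g0411931 (-2.01) and MtrunA17_Chr5g0411871 (-1.18, from 175.7 to 80.1 CPM) fell. With library totals the latter also passed at 1 mm, at -1.45. The median over the 5 genes was 0.50 at 1 mm, which turned to -0.08 with library totals, and -0.23 at 5 mm, which became 0.37 with genes at the count floor set to their bound. In R1P against R1, which is outside any test here and shaped the choice of the list, all 5 that were tested lay above 0.

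The listed peroxidases went in both directions in cotyledons. Of 10 further genes annotated as peroxidase or L-ascorbate peroxidase, 7 could be tested. At 1 mm 3 fell and 2 rose, with a median of -1.57, and at 5 mm 3 fell and 1 rose, with a median of -0.92. Over all genes 14.9% were called lower and 13.8% higher at 1 mm, and 12.1% and 9.02% at 5 mm. MtrunA17_Chr4g0075241 fell most of the list at both stages, from 59.1 and 55.7 CPM in C1 to 0.468 and 0.316 CPM in C1P (log2 fold change -7.18, SE 0.39, edgeR adjusted p = 3.45e-05), and from 160.9 and 89.7 CPM in C5 to 0.97 and 1.09 CPM in C5P (-6.97). Unlike the 4 genes above, it was also lower in R5P, at 3.35 and 2.59 CPM, than in R5, at 36.04 and 38.8 CPM. Those 4 genes were selected as lower in R1P than in the other radicle samples, so the selection favoured this contrast. MtrunA17_Chr2g0292151 fell as well (-2.53 and -2.33), from 3.94 to 0.692 CPM at 1 mm and from 2.77 to 0.569 CPM at 5 mm. MtrunA17_Chr4g0074851 rose from 62.1 and 64.4 CPM in C1 to 369.2 and 359.9 CPM in C1P (2.51) and from 165.3 and 116.8 CPM in C5 to 618.2 and 812.6 CPM in C5P (2.29). The L-ascorbate peroxidase MtrunA17_Chr3g0137751, of the family that removes hydrogen peroxide with ascorbate, rose at 1 mm from 8.54 to 40.95 CPM (2.24, edgeR adjusted p = 0.0021), while its 5 mm difference of 1.02 did not pass (edgeR adjusted p = 0.053).

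Sucrose synthase cleaves sucrose into fructose and UDP-glucose and so supplies sugar to glycolysis and fermentation. All 3 listed sucrose synthase genes fell at 1 mm. MtrunA17_Chr5g0433761 went from 20.6 to 2.10 CPM (-3.31, SE 0.27, edgeR adjusted p = 0.000129), MtrunA17_Chr2g0301621 from 34.1 to 5.60 CPM (-2.62, edgeR adjusted p = 0.00243), and MtrunA17_Chr3g0109841, which also belongs to cluster 5, from 2.54 to 0.0949 CPM (edgeR adjusted p = 0.00565). At 5 mm MtrunA17_Chr5g0433761 fell again (-2.26), MtrunA17_Chr2g0301621 passed at -1.27 but not with library totals (-1.38, edgeR adjusted p = 0.0595), and MtrunA17_Chr3g0109841 at -1.43 did not pass (edgeR adjusted p = 0.188). The aldehyde dehydrogenase MtrunA17_Chr3g0117861, which oxidises the substrate that alcohol dehydrogenase reduces or other aldehydes, rose from 0.0557 to 9.17 CPM at 1 mm (7.21, SE 0.42, edgeR adjusted p = 3.63e-05) and from 0.174 to 13.1 CPM at 5 mm (6.12). Its C1 libraries held 2 and 1.168 counts, under the floor of 3 counts, so the size of the 1 mm rise is not well set by the counts.

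The listed genes of hydrogen peroxide supply and removal, annotated through the study's radicle tables, divided into those that fell and those that rose. The NAD(P)H oxidase MtrunA17_Chr1g0192121, of the enzymes that make superoxide outside the cell, fell from 4.01 and 5.06 CPM in C1 to 0.364 and 0.19 CPM in C1P (-4.0, SE 0.43, edgeR adjusted p = 0.000447) and from 6.31 and 7.24 CPM in C5 to 1.73 and 1.595 CPM in C5P (-2.09). The superoxide dismutase MtrunA17_Chr7g0271211, which turns superoxide to hydrogen peroxide, fell by -3.23 at 1 mm and by -4.39 at 5 mm, where it went from 34.1 and 20.5 CPM to 1.18 and 1.504 CPM. Both are themselves cluster 5 genes. The other 3 superoxide dismutases rose at 1 mm by 1.09 to 1.93 and did not pass at 5 mm. Of 4 peroxiredoxins, thiol enzymes that reduce peroxides, all rose at 1 mm and 3 at 5 mm. The 1-Cys peroxiredoxin MtrunA17_Chr4g0052651, a seed protein, rose from 1.67 and 1.86 CPM in C1 to 223.5 and 355.6 CPM in C1P (7.34, SE 0.45, edgeR adjusted p = 4.21e-05). Over the whole list of sugar supply and peroxide genes, 13 of 14 were tested. In C1P against C1 5 fell and 8 rose, with a median of 1.09, where 14.9% of all genes were called lower and 13.8% higher. With library totals 5 fell and 5 rose. MtrunA17_Chr2g0287981, MtrunA17_Chr3g0128941 and MtrunA17_Chr7g0273571 were the calls that this scaling removed. In C5P against C5 4 fell and 4 rose, with a median of 0.22, where 12.1% of all genes were called lower and 9.02% higher.

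The fall in cotyledons was shared by many other genes of the same radicle selection. Of the 99 further cluster 5 genes, 88 were tested in cotyledons. At 1 mm 54 of them, 61.4%, were called lower after PEG and 1 was called higher. Over all genes tested 14.9% were called lower there and 13.8% higher. The median log2 fold change of the 88 was -2.33, or -2.02 with genes at the count floor set to their bound. With library totals 62 were lower at 1 mm and 0 higher. At 5 mm 40, or 45.5%, were lower and 7 higher, with a median of -1.35, beside 12.1% lower and 9.02% higher over all genes. At both stages 32 of the 88 were lower, beside 1579 of the 23060 genes tested. The 3 tested genes fell more than the list median at each stage. The study chose this list on the radicle libraries of these same groups of seeds, and it was not tested as a list.

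**Figure D4:**
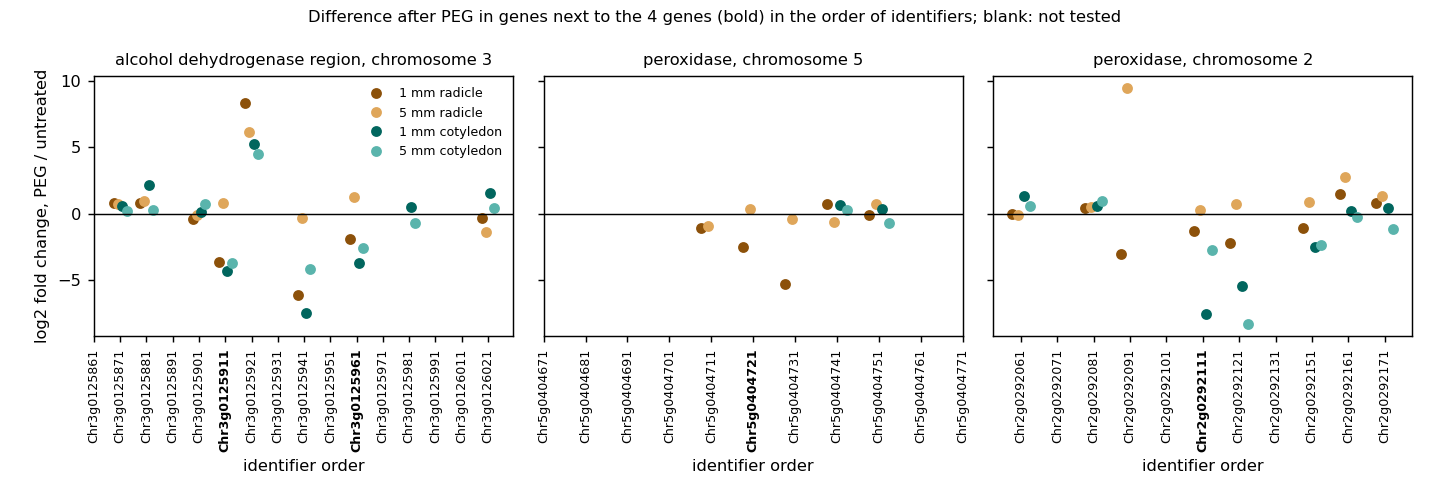
Log2 fold change after PEG (edgeR estimate) of the genes next to the 4 genes in the order of identifiers, in 1 mm and 5 mm radicles and cotyledons. The horizontal axis gives the order of identifiers and not distance, the 4 genes are in bold, and genes that were not tested have no point. On chromosome 3 the gene beside MtrunA17_Chr3g0125911, MtrunA17_Chr3g0125921, lies well above 0 in all 4 comparisons, and another between the alcohol dehydrogenase genes lies far below 0 in 3 of them. The radicle values of MtrunA17_Chr3g0125921 depend on the prior count because R1 and R5 had 0 counts, and its R5P libraries had 0 and 16 counts.

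By their identifiers the alcohol dehydrogenase genes lie close together on chromosome 3, with 4 identifiers between them, MtrunA17_Chr2g0292111 is on chromosome 2, and MtrunA17_Chr5g0404721 on chromosome 5. Adjacent genes did not all move alike. Next to MtrunA17_Chr3g0125911, the gene MtrunA17_Chr3g0125921 rose after PEG, from 0.0371 and 0.26 CPM in C1 to 3.797 and 8.10 CPM in C1P (edgeR adjusted p = 0.00305) and from 0.21 and 0.0358 CPM in C5 to 2.36 and 3.51 CPM in C5P (edgeR adjusted p = 0.0076). Between the alcohol dehydrogenase genes, MtrunA17_Chr3g0125941, with no annotation at hand, fell from 32.5 and 31.2 CPM in C1 to 0.26 and 0.0633 CPM in C1P (-7.53, edgeR adjusted p = 5.65e-05) and from 21.7 and 12.04 CPM in C5 to 1.05 and 0.82 CPM in C5P (-4.21, edgeR adjusted p = 0.000252). In radicles it had 14.6 and 15.2 CPM in R1, 0.156 and 0.251 CPM in R1P, 5.01 and 6.401 CPM in R5, and 3.01 and 5.46 CPM in R5P. Its counts were fractional. In C1 replicate 1 its 875.521 counts completed the fraction of the alcohol dehydrogenase pair's 4207.479, so reads were divided among these genes and their falls are not independent.

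Beside MtrunA17_Chr2g0292111, both MtrunA17_Chr2g0292121 and the peroxidase gene MtrunA17_Chr2g0292151 fell in cotyledons. In C5 replicate 1 they had, in this order, 257.152, 54.46 and 79.388 counts, and these fractions complete each other. Reads were thus divided among these genes, so their levels and falls are not independent. MtrunA17_Chr2g0292121, annotated only as a putative protein and also in cluster 5, had 2.27 and 1.15 CPM in C5 and 0 counts in both C5P libraries (edgeR adjusted p = 0.00583), and 0.223 CPM in each C1 library and 0 counts in C1P (edgeR adjusted p = 0.0435). Like MtrunA17_Chr2g0292111 it was higher in radicles, with 7.74 and 5.79 CPM in R1, 1.76 and 1.15 CPM in R1P, and 10.5 and 7.41 CPM in R5P. None of the 10 neighbours of MtrunA17_Chr5g0404721 was called in any of the 4 PEG comparisons, and most had few counts. The adjacent MtrunA17_Chr5g0404731 had 39.78 counts in R5 replicate 1 and 5.127 in C5 replicate 1. They complete the fractions of MtrunA17_Chr5g0404721 there, at 614.22 and 5.873 counts. Reads were thus divided between these genes as well, so their levels are not independent.

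Across the 16 libraries the alcohol dehydrogenase genes varied most alike of the 6 pairs, with a Pearson r of 0.93 on log2(CPM + 0.5), and r was 0.75 for the peroxidase genes. Pairs of an alcohol dehydrogenase with a peroxidase gene ran from 0.59 to 0.77. All points share the same libraries and group differences, and reads shared within the alcohol dehydrogenase pair enter its value. The genes most like each of the 4 were sought among the 20324 whose mean over all libraries reached 1 CPM. For MtrunA17_Chr2g0292111 they were MtrunA17_Chr4g0065581 (0.976), MtrunA17_Chr2g0292261 (0.97) and the superoxide dismutase MtrunA17_Chr7g0271211 (0.966). For MtrunA17_Chr5g0404721 they were MtrunA17_Chr7g0228861 (0.978), MtrunA17_Chr6g0488721 (0.973) and MtrunA17_Chr6g0481481 (0.973), of which MtrunA17_Chr7g0228861 had 0 counts in all 8 cotyledon libraries. MtrunA17_Chr3g0125911 was most like MtrunA17_Chr3g0118251 (0.952), MtrunA17_Chr7g0239651 (0.95) and MtrunA17_Chr4g0046841 (0.948), and MtrunA17_Chr3g0125961 like MtrunA17_Chr3g0130731 (0.942), MtrunA17_Chr2g0301171 (0.94) and MtrunA17_Chr2g0292181 (0.939). MtrunA17_Chr3g0118251 had 24.4 and 24.7 CPM in C1 and 11.9 and 8.35 CPM in C1P, a smaller difference than that of the gene it resembled. Of these 12 genes, MtrunA17_Chr7g0239651 and MtrunA17_Chr7g0271211 belong to cluster 5.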

How the data were processed

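RNA was sequenced by the authors as single-end reads of 50 bp. The deposited values are estimated counts per gene, one column per library, which the authors made with Salmon 1.2 on the Mtv5 transcriptome (annotation r1.6). They were rounded to whole numbers. Every column was mapped to a sample by its title, and 0 columns were left out. Of the gene identifiers, 0 matched the RefSeq table, so annotations are those of the study's supplementary tables, and no sequence or length was used. Counts were tested with edgeR 4.0.16 in R 4.3.3 (TMM, filterByExpr, quasi-likelihood test, Benjamini-Hochberg), with 23060 genes in 8 cotyledon, 23793 in 8 radicle and 25524 in all 16 libraries. Genes were called at an adjusted p of 0.05 and a log2 fold change of 1. The SE of a log2 fold change is not an edgeR output. It was taken as the absolute log2 fold change divided by the square root of the test's F statistic. Intervals and floors (3 counts) cover counting error only. The p-values measure the spread between 2 libraries per group. Genes named are the 4 genes, annotated relatives, a pathway list, 5 neighbours on each side and the 3 most correlated genes for each. The genes and lists were chosen with earlier results of these data known. Alternatives were DESeq2 1.42.0, RLE factors, library totals, no filter, a replicate block, other sets of libraries, the fold limit dropped, summed alcohol dehydrogenase counts and each library left out. The scripts were tested on simulated data.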

Additional observations from a re-analysis of the deposited data

How the results depend on the processing

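The cotyledon comparisons of the 3 tested genes gave 182 values under the alternatives. Of these, 166 kept their side of the threshold and 0 passed in the opposite direction. Values that did not pass could change sign, as C5 against C1 for MtrunA17_Chr3g0125961 did, from -0.92 to 0.28. The falls after PEG of both alcohol dehydrogenase genes, at 1 mm and at 5 mm, and that of MtrunA17_Chr2g0292111 at 1 mm, passed under every alternative run. With library totals MtrunA17_Chr3g0125961 was higher in C5P than in C1P at 1.29 and passed, and no gene of the 4 was called higher in R5P against R5 (0 in place of 1). Replicate numbers are shared between groups without a stated batch, and deviations of same-numbered libraries correlated at -0.44 for C1 with C1P and at -0.56 for C5 with C5P, so the numbers were not taken as pairs. With the replicate block MtrunA17_Chr3g0125911 in C5P against C1P was 1.53 with edgeR adjusted p = 0.0712, and genes called higher there were 1 in place of 2. The block changed no other cotyledon call of the 4 genes. With single libraries left out, C5P against C5 for MtrunA17_Chr2g0292111 ran from -3.21 to -1.81 and C5 against C1 from 2.01 to 3.56, C5P against C1P from 7.58 to 7.89 (values that the prior count sets, as C1P had 0 counts, so that their narrow range says nothing of stability), C5 against C1 for MtrunA17_Chr3g0125911 from 0.54 to 1.31, and C5P against C1P for it from 1.32 to 1.76. Genes called higher then ran from 0 to 2 in C5 against C1, from 0 to 1 in C5P against C1P and from 0 to 2 in R5P against R5. A lone library was there assumed to vary like the other groups. Fewer libraries enter these fits, and the cause of the other changes was not tested. Of 335 values of radicle and tissue comparisons, 51 moved by over 1 SD between replicates, 10 of them with library totals and 9 without R5P replicate 2. By the same limits 0 were called in the opposite direction. Values near 0 could change sign. R5P against R5 for MtrunA17_Chr2g0292111 ran from -0.11 to 0.48, and C5 against R5 for MtrunA17_Chr3g0125961 from -0.69 to 0.51. Depth limits MtrunA17_Chr5g0404721 in cotyledons, where no library had over 11 counts, and MtrunA17_Chr2g0292111 in C1P.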
